A study of Mus musculus with 12 samples.

Results

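The 8 genes described here are Ttr, Enpp2, Folr1, Kl, Clic6, Kcnj13, Aqp1 and Otx2, a set of choroid plexus genes with autotaxin, taken by symbol from the 23238 gene symbols of the files. All 8 were among the symbols, and all 8 passed the filter on low values that left 11955 genes for testing (10 or more on the linear scale in 4 or more libraries). The 12 libraries were made from cells that the labels call meningeal lymphatic endothelial cells, taken by magnetic sorting from the meninges of mice 20 weeks old. They fall by title into 3 groups of 4, SJL_B6, AD_B6 and AD_TG. All 3 groups carry the strain label C57BL/6, and the labels do not spell out what AD, TG and SJL stand for, nor any allele or promoter. The labels name 3 to 4 mice of each strain but not which mouse each library came from. Libraries of a group may therefore share animals, and p-values measure only the spread between these libraries. By title AD_B6 and SJL_B6 differ in the first part (AD or SJL) and AD_TG and AD_B6 in the second (TG or B6). AD_TG and SJL_B6 differ in both, whose parts in a difference cannot be told apart in that comparison alone.

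The choroid plexus is a fold of epithelium on a vascular core that hangs into the brain ventricles and secretes cerebrospinal fluid. Its epithelium makes transthyretin (Ttr), the carrier of thyroid hormone and retinol-binding protein, takes up folate through folate receptor alpha (Folr1), and sheds the anti-ageing hormone klotho (Kl). Water and ions cross it through the water channel aquaporin-1 (Aqp1) and the inward rectifier Kir7.1 (Kcnj13), and it holds the intracellular chloride channel protein Clic6. Autotaxin (Enpp2) is a secreted enzyme that makes lysophosphatidic acid (LPA), and the choroid plexus is a rich source of it. Otx2 is a homeodomain transcription factor of the choroid plexus that is also made in the pineal gland and retina.

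Values are the deposited log2 values, log2(x + 1) of an amount scaled by the authors, unless another unit is given. Assigned reads, estimated from the steps in the low values, ran from 4050103 to 9267212 per library, and genes with reads from 8748 to 12217. Of 9 lymphatic endothelial markers, 2 had reads in all 12 libraries, Pdpn and Nrp2. Reads of Lyve1 were found in 11 libraries, of Itga9 and Ccl21a in 9, and of Flt4 and Mmrn1 in 6. Those of Reln were found in 4 and those of Prox1, which directs lymphatic fate, in 2. SJL_B6 replicate 2 and AD_B6 replicate 1 stood apart from the other 10 libraries in Ttr, and results that rest on them are given with and without them. No relation of Ttr passed the threshold with the depth (Pearson r of -0.284 over the 12 libraries, permutation p = 0.378, Spearman rho of -0.154, p = 0.637) or the number of genes with reads (r of -0.0133, p = 0.964, rho of 0.028, p = 0.939). Over 3 library measures, the last being the share of the ribosomal RNA precursor (r of 0.427), the adjusted permutation p of r ran from 0.434 to 0.964. In bulk RNA, fewer cells of a type and less RNA per cell cannot be told apart.

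Ttr and Enpp2 varied widely between libraries of the same group, and they varied together. For Ttr, SJL_B6 replicates 1 to 4 read 18.51, 13.38, 18.13 and 18.38, those of AD_B6 read 13.92, 17.29, 17.48 and 19.18, and those of AD_TG read 18.63, 18.69, 16.59 and 18.71. In each group 1 library was low, and the 3 groups overlapped. On the linear scale Ttr took from 0.162% of all deposited signal in SJL_B6 replicate 2 to 8.31% in AD_B6 replicate 4, a 55.9-fold range. For Enpp2 the SJL_B6 libraries read 16.28, 11.86, 16.50 and 16.30, those of AD_B6 11.87, 15.71, 15.32 and 17.42, and those of AD_TG 16.86, 16.87, 14.50 and 16.83. The same 2 libraries were lowest and the same library highest for both genes. Enpp2 took from 0.0564 to 2.45% of the signal, a 47.4-fold range.

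The log2 distance between Ttr and Enpp2 moved little. It was 1.88 ± 0.24 (SD, n = 12), with a lowest value of 1.52 and a highest of 2.23, while Ttr itself spanned 5.80 log2 units. By group the distance was 1.87 ± 0.34 for SJL_B6, 1.89 ± 0.27 for AD_B6 and 1.89 ± 0.14 for AD_TG (SD over 4 libraries each). The distance depends on how each transcript is captured, so only its spread is read here. The slope of Enpp2 on Ttr was 0.98 (SE 0.039), where a slope of 1 means that the linear values keep 1 ratio. Without the 2 libraries lowest in Ttr the slope was 1.051 (SE 0.099).

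**Figure D1:**
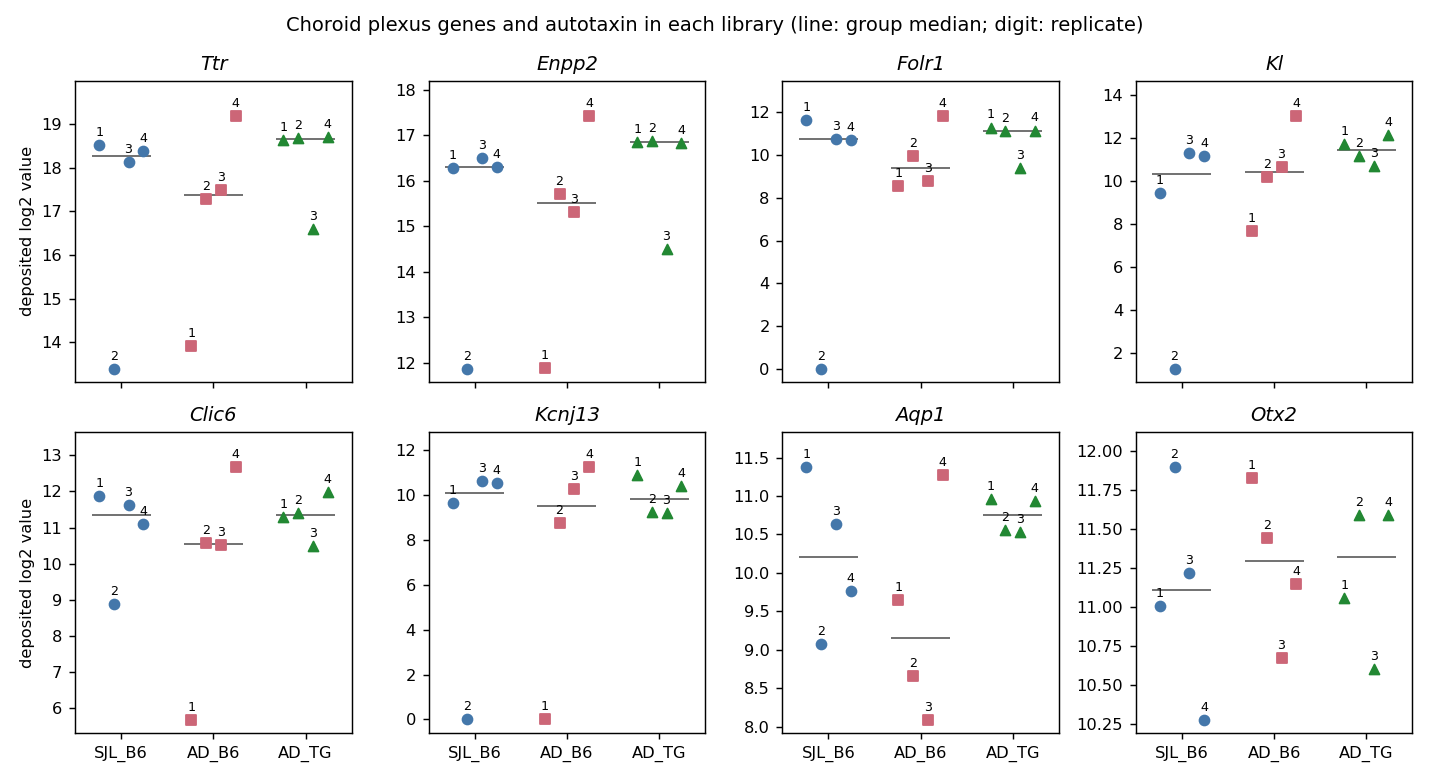
Deposited log2 value (y axis, own range per panel) of each of the 8 genes in the 4 libraries of SJL_B6, AD_B6 and AD_TG, with the replicate number above each point and a line at the group median. SJL_B6 replicate 2 and AD_B6 replicate 1 are the lowest points for Ttr at 13.38 and 13.92, and the highest for Otx2 at 11.90 and 11.83.

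The receptor and hormone genes of the epithelium were also lowest in those 2 libraries. The Folr1 values of SJL_B6 replicates 1 to 4 were 11.63, 0, 10.77 and 10.70, those of AD_B6 were 8.56, 9.96, 8.80 and 11.82, and those of AD_TG were 11.28, 11.12, 9.40 and 11.14. It was listed at 0 in SJL_B6 replicate 2, one of the deeper libraries with an estimated 9247514 reads, while AD_B6 replicate 1 held an estimated 402 Folr1 reads. The Kl values were 9.46, 1.26, 11.31 and 11.19 for SJL_B6, 7.68, 10.20, 10.67 and 13.04 for AD_B6, and 11.71, 11.16, 10.69 and 12.15 for AD_TG. The value of 1.26 amounts to about 2 reads. Both genes were again highest in AD_B6 replicate 4, and in both the 3 groups overlapped.

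Of the channel genes, Kcnj13 and Clic6 were lowest in the same 2 libraries and Aqp1 was not. The Kcnj13 values were 9.66, 0, 10.61 and 10.54 for SJL_B6, 0, 8.74, 10.26 and 11.25 for AD_B6, and 10.89, 9.23, 9.18 and 10.39 for AD_TG. Those of Clic6 were 11.88, 8.89, 11.62 and 11.09, then 5.67, 10.56, 10.52 and 12.67, then 11.29, 11.39, 10.48 and 11.99 in the same order of groups. The 5.67 of AD_B6 replicate 1 amounts to about 53 reads. Aqp1 read 11.38, 9.08, 10.64 and 9.77 in the SJL_B6 libraries, 9.64, 8.67, 8.09 and 11.28 in those of AD_B6, and 10.96, 10.56, 10.53 and 10.94 in those of AD_TG. Its lowest values were thus in AD_B6 replicates 2 and 3. In AD_TG all 4 Aqp1 values lay between 10.53 and 10.96, a span of 0.44. Aqp1 is also a gene of red blood cells and of some endothelium.

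Otx2 was not low in those 2 libraries. It read 11.01, 11.90, 11.22 and 10.28 in the SJL_B6 libraries, 11.83, 11.44, 10.68 and 11.15 in those of AD_B6, and 11.06, 11.59, 10.61 and 11.59 in those of AD_TG. Its mean was 11.20 ± 0.50 (SD, n = 12), a total range of 1.62, and it was highest in the 2 libraries in which Ttr was lowest. The spread of Otx2 within groups was an SD of 0.55, larger than that of 39.8% of the 701 tested genes within 1 log2 unit of its mean. The SD of Aqp1 was larger than that of 78.6% of 1667 such genes. Clic6, Kl, Folr1 and Kcnj13 had SDs of 1.92, 3.05, 3.35 and 4.23, values at 0 counted, larger than those of at least 99.3% of the tested genes of a like level. Ttr and Enpp2 had SDs of 2.01 and 1.99 within groups, and only 1 and 2 tested genes lay within 1 log2 unit of them.

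Correlation with Ttr over the 12 libraries was computed for each of the other 11954 tested genes, with a two-sided permutation test of 100000 resamples adjusted by Benjamini-Hochberg over all of them. Of these genes, 11 passed (0.092%), all with a positive r. Among the 7 other members 2 passed, Enpp2 and Folr1. Enpp2 had the highest r of all tested genes, 0.992 (p = 1e-05, the smallest that the permutations can give, adjusted p = 0.0299), with a Spearman rho of 0.944 (p = 4e-05, adjusted p = 0.0797). Folr1 had r = 0.842 (p = 4e-05, adjusted p = 0.0435) and rho = 0.909 (p = 0.0001, adjusted p = 0.109). Neither passed by rank correlation or by permutation within groups (adjusted p = 0.630 for both). With group means removed, r was 0.991 for Enpp2 and 0.855 for Folr1. Permuting within groups of 4 gives few arrangements, and no tested gene passed there (lowest adjusted p = 0.538 by permutation). Hardly any gene could pass that test, so nothing is read from its outcome.

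Kcnj13, Clic6 and Kl had r = 0.951, 0.885 and 0.870 with unadjusted p-values of 0.00057, 0.00049 and 0.00034 by permutation, and adjusted p-values of 0.195, 0.186 and 0.185. Their rho was 0.760, 0.909 and 0.811, with unadjusted p-values of 0.00544, 0.0001 and 0.00211 and adjusted p-values of 0.439, 0.109 and 0.371. Aqp1 had r = 0.522 (p = 0.0748, adjusted p = 0.864) and rho = 0.734 (p = 0.0089, adjusted p = 0.495). Otx2 had r = -0.469 (p = 0.126, adjusted p = 0.903) and rho = -0.161 (p = 0.619, adjusted p = 0.962), rank 11352 of the 11954 genes by r. An unadjusted p under 0.05 with a positive r was found for 5 of the 7, beside 4.54% of all genes tested, and the same 5 had an r over 0.7, beside 1.77%.

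The r of Kcnj13, Kl and Otx2 changed most without the 2 low libraries. The largest gap between neighbouring Ttr values, 2.67, lay just above them and took 46.0% of the range. Without them, over 10 libraries, r with Ttr was 0.966 for Enpp2, 0.880 for Folr1, 0.861 for Clic6, 0.624 for Kcnj13, 0.583 for Aqp1 and 0.561 for Kl. Enpp2 remained the gene with the highest r of all 11954, Folr1 was at rank 22 and Clic6 at rank 32, while Kcnj13 and Kl were at ranks 489 and 780. For Otx2 the sign turned, to 0.355. No gene passed the adjustment over the 10 libraries (lowest adjusted p = 0.478 by permutation), and 677 of 11954 had an unadjusted p under 0.05. Enpp2 passed in 5 of the 12 analyses that left out 1 library each and Folr1 in 4, with r from 0.989 to 0.994 and from 0.834 to 0.964. The smallest permutation p, 1e-05, passes the adjustment over 11954 genes only where several genes reach such low p-values together. These counts thus depend on other genes too. The slopes on Ttr of Folr1, Kl and Kcnj13, the genes with values at or near 0, were 1.42 (SE 0.29), 1.41 (SE 0.25) and 1.998 (SE 0.20), and 1.08 (SE 0.21), 0.71 (SE 0.37) and 0.65 (SE 0.29) without those libraries. Clic6 kept a slope of 0.86 (SE 0.14) with them and 0.78 (SE 0.16) without.

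**Figure D2:**
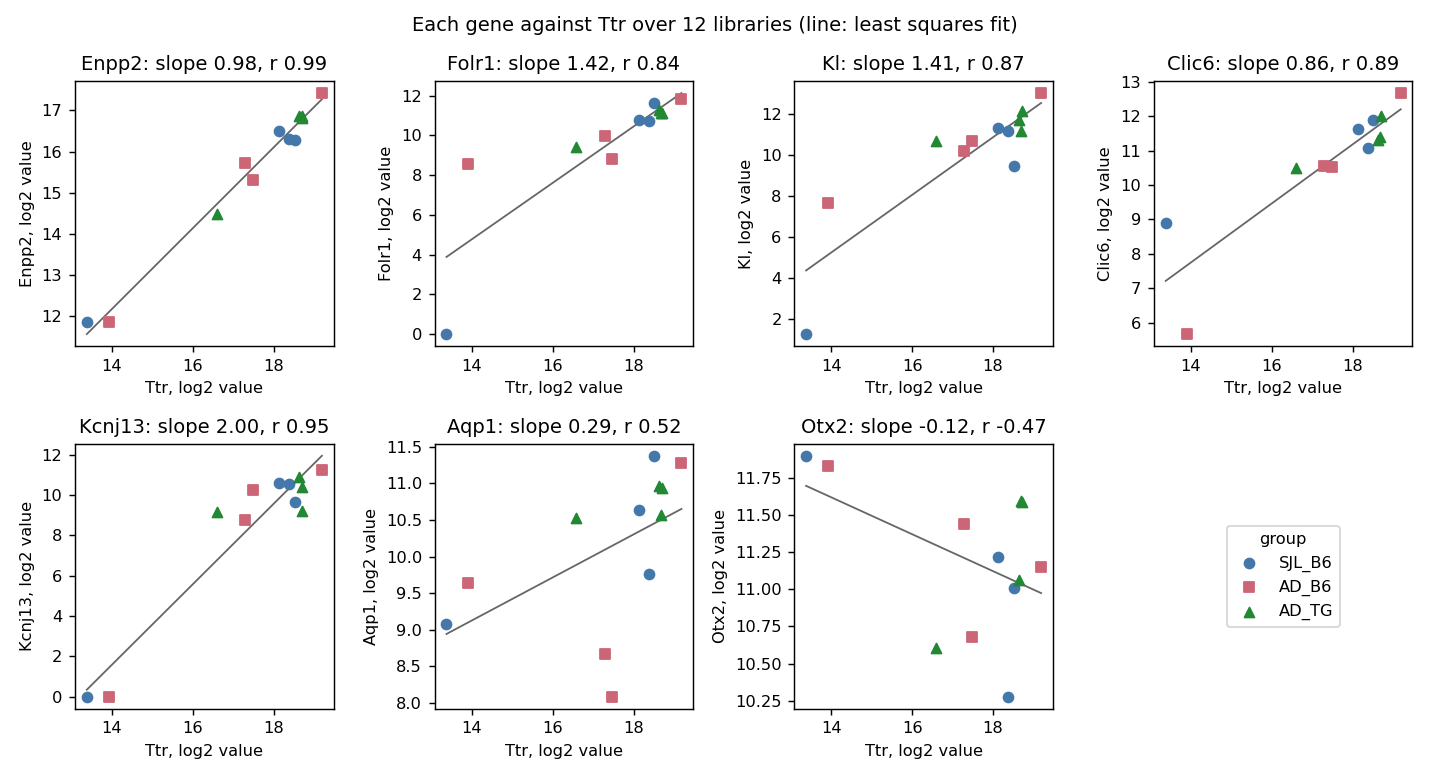
Deposited log2 value of each of the 7 other genes (y axis) against that of Ttr (x axis) in the 12 libraries, coloured by group, with the least squares line. Enpp2 follows the line in all 3 groups with a slope of 0.98, and Otx2 has a slope of -0.12.

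Among themselves, the members other than Otx2 had positive r throughout. Over all 12 libraries Folr1 and Kl had r = 0.940, Enpp2 and Clic6 0.903, and Clic6 and Kcnj13 0.882, given as a description since these genes come from the same libraries. Without the 2 low libraries Folr1 and Kl had 0.398, Enpp2 and Clic6 0.838, Folr1 and Clic6 0.874, and Folr1 and Aqp1 0.819. Otx2 had a negative r with all 7 other genes over the 12 libraries, from -0.637 with Kcnj13 to -0.0243 with Aqp1. Without those libraries its r was positive with 6 of them, and -0.188 with Kcnj13.

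Upstream sequence was at hand in the RefSeq promoter table (GRCm38.p6) for 4 of the 8 genes, Kcnj13, Kl, Aqp1 and Otx2. It is shown for Kcnj13 and Kl, the genes with the highest r with Ttr among these 4, neither past the threshold, and for the Otx2 start whose upstream window holds the bicoid-class motif TAATCC, the class of motif that Otx2 itself binds. Each run is the 250 bases before a start site, 5′ to 3′ on the gene's strand, and capitals mark the motif, here read on the opposite strand.
Kcnj13, chr1:87394730-87394979, minus strand: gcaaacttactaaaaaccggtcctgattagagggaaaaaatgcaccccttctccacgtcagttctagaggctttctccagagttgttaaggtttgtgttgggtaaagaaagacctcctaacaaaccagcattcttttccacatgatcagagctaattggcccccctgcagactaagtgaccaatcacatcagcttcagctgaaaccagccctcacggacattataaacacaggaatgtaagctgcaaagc
Kl, chr5:150952357-150952606, plus strand: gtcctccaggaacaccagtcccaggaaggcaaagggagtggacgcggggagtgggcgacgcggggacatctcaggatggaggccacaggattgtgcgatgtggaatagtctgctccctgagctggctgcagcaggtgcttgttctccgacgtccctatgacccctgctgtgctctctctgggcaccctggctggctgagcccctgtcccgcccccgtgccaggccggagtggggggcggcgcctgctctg
Otx2, chr14:48665110-48665359, minus strand: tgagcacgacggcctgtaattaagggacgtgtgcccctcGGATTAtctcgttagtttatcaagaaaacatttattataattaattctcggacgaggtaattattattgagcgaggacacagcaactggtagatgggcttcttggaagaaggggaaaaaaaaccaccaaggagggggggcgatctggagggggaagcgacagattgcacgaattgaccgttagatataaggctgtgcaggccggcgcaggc
TAATCC was found on either strand in 6.25% of 32851 such windows, the forkhead motif TGTTTAC in 3.17% and the RFX motif GTTGCCA in 3.66%. None of the 3 motifs was in the windows of Kcnj13, Kl or Aqp1. Of the 4 Otx2 windows, 1 held TAATCC, 211 bases before the start, and 1 held GTTGCCA, 44 bases before the start. The GC content was 45.2% for Kcnj13 and 66.8% for Kl, beside a median of 52.4% over all windows. A match or its absence describes these letters only.

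The 12 genes outside the 8 whose pattern was most like that of Ttr were taken by r over the 12 libraries. First came Cldn2, a leaky tight junction claudin (r = 0.971), Steap1 (0.971) and Sostdc1, a secreted antagonist of BMP and Wnt (0.954). Next were the homeobox gene Six3 (0.951), Rsph1, a radial spoke protein of motile cilia (0.943), coagulation factor F5 (0.942) and the potassium channel gene Kcnk1 (0.940). The others were Sowahc (0.937), the radial spoke gene Rsph9 (0.926), Tra2a (0.922), Prkaa2 (0.922) and C1qtnf5 (0.917). Of these 12, Cldn2, Steap1, Sostdc1, F5 and Kcnk1 passed, with adjusted p-values of 0.0299 to 0.0435 by permutation. Steap1, Six3, Rsph1, Sowahc, Rsph9 and Tra2a were listed at 0 in both SJL_B6 replicate 2 and AD_B6 replicate 1. Without those libraries r was 0.881 for Steap1, 0.862 for Kcnk1 and 0.858 for Sostdc1, but 0.525 for Rsph1, 0.499 for Rsph9 and 0.403 for Tra2a.

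The lowest r with Ttr were those of the ribosomal protein gene Rps13 (-0.810), Ubap2 (-0.807), Cyth4 (-0.798), C030034L19Rik (-0.785) and Angptl6 (-0.773), with adjusted p-values of 0.186 to 0.523 by permutation. The remaining genes that passed were Slc22a17, which encodes a lipocalin receptor (r = 0.912), Cab39l (0.911), the prolactin receptor gene Prlr (0.908) and Ddr1, a collagen receptor of epithelia (0.888).

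**Figure D3:**
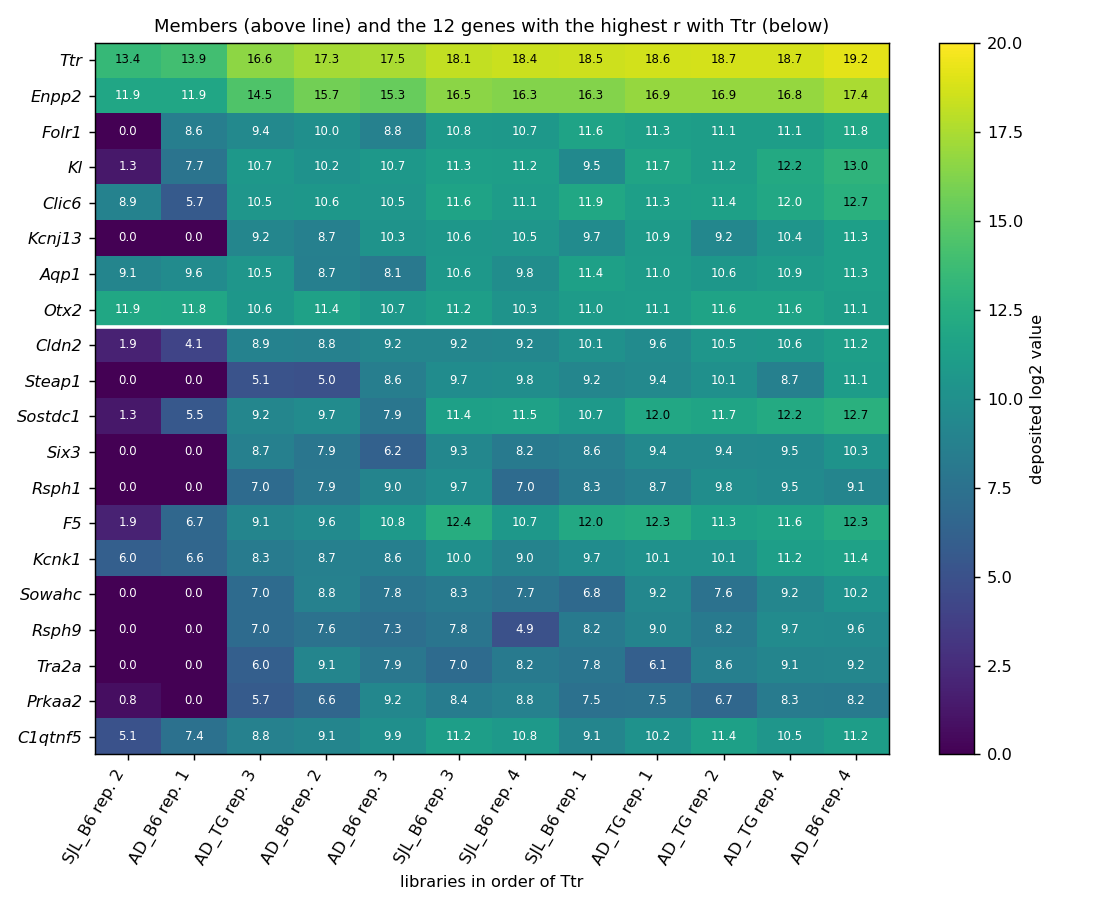
Deposited log2 values (colour and printed number) of the 8 genes, above the white line, and of the 12 genes with the highest r with Ttr, below it, in the 12 libraries ordered from left to right by Ttr. The 2 leftmost libraries hold all of the values at 0, whereas Otx2 is at 11.90 and 11.83 there.

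A wider list of 54 choroid plexus genes was read the same way, of which 52 were tested (Mfrp and Lrp2 were not). Of the 52, 48 (92.3%) had a positive r with Ttr, beside 46.0% of all genes tested, and the median r was 0.703 beside -0.0319. An r over 0.7 was found for 26 of them. Past the threshold were 6, namely Cldn2, Steap1, Sostdc1, F5, Cab39l and Prlr. Among the most abundant of the list, high r belonged to Igf2, the growth factor (0.914), Cab39l (0.911), Atp1b1, the sodium pump subunit (0.851), 1500015O10Rik, the augurin gene (0.836), Atp2b3, a calcium pump (0.762), the copper transporter gene Slc31a1 (0.760) and Igfbp2 (0.717). The kinase gene Stk39 had 0.476, the bicarbonate transporter gene Slc4a10 0.432, the carbonic anhydrase gene Car14 0.242 and the collagen gene Col8a1 0.131. Apart from Cab39l none of these passed, with adjusted p-values of 0.0598 to 0.997 by permutation.

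**Figure D4:**
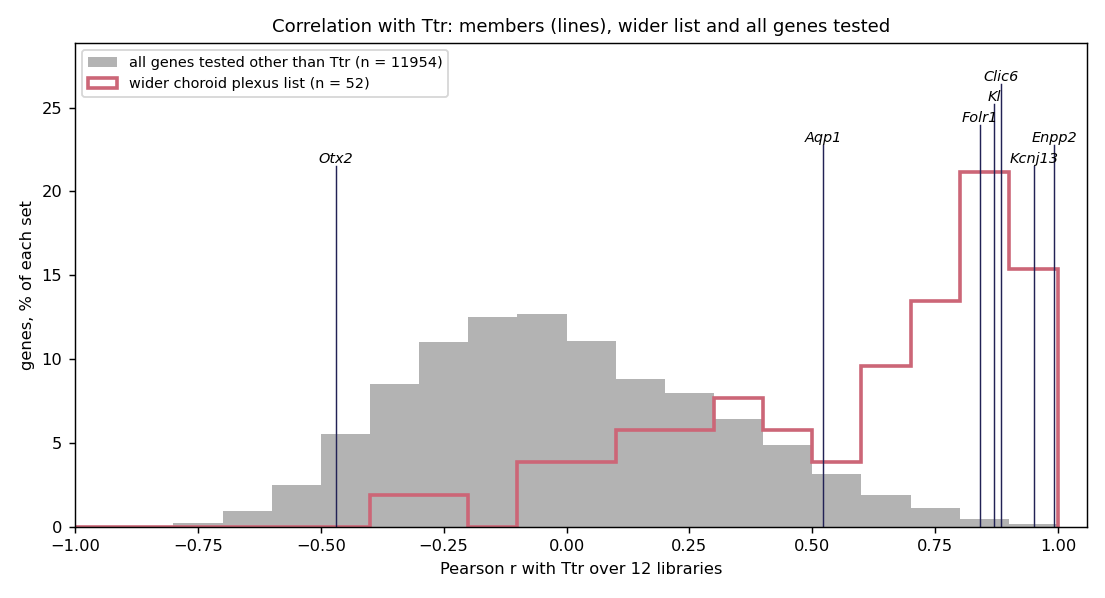
Share of genes (y axis, % of each set) by Pearson r with Ttr over the 12 libraries (x axis, bins of 0.1) for all 11954 genes tested other than Ttr (grey) and the 52 tested genes of the wider choroid plexus list (red line), with vertical lines at the 7 other members. Lines for 5 of the 7 stand above 0.7, Aqp1 is at 0.522 and Otx2 at -0.469.

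The same list gives the level of each library without the 8 genes. Its median was 8.02 in SJL_B6 replicate 2 and 7.69 in AD_B6 replicate 1, where the median of all genes tested was 7.64 and 7.72. In the other 10 libraries it ran from 8.83 to 11.03, beside 7.20 to 7.75 for all genes. Below the value of 1 read were 8 of the 52 in SJL_B6 replicate 2 (15.4%, beside 15.6% of all genes tested) and 12 in AD_B6 replicate 1 (23.1%, beside 14.4%). In AD_B6 replicate 3, the library with the fewest genes with reads, 8 were (15.4%, beside 31.6%). In AD_B6 replicate 4 and AD_TG replicates 2 and 4 none of the 52 was below 1 read.

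In the lists of genes that act with the members no gene passed the correlation test. Of the autotaxin and LPA list 12 of 19 were tested and 5 had a positive r. Ppap2b, a phosphatase that degrades LPA, stood between 11.95 and 13.37 in all libraries (r = -0.0433, permutation p = 0.889), while the LPA receptor gene Lpar1 ran from 0 to 10.22 (r = 0.334, p = 0.289). The other 4 of the 6 most abundant, Agpat2, Ppap2a, Agpat1 and Enpp4, had r between -0.154 and 0.143. Lpar2 and Lpar5 had no reads in any library.

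Of the folate list 10 of 12 were tested. The reduced folate carrier gene Slc19a1 had the highest r of its list, 0.738 (adjusted p = 0.624 by permutation), and the proton-coupled folate transporter gene Slc46a1 had -0.0424. The enzyme genes Mthfd1 and Shmt2 had -0.0092 and -0.492. Of the klotho and FGF list 5 of 10 were tested, and Fgfr1, Fgfr2, Fgfr3, Adam10 and Adam17 had r from -0.358 to 0.143. Klb, the gene of beta-klotho, had no reads.

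All 16 genes of the list for retinol and thyroid hormone carriage, the cargo of transthyretin, were tested, and 6 had a positive r. Slco1c1, the thyroid hormone transporter OATP1C1, had r = 0.699 and rho = 0.783 (adjusted p = 0.516 for r by permutation). The nuclear receptor genes Thra, Thrb and Rxra had -0.394, -0.381 and -0.340, and Crabp1 had -0.389. Among relatives of the channel and homeobox members, 10 of 14 were tested. Otx1 had 0.676, Crx -0.124, Clic1 -0.0078, Clic4 -0.533, Kcnj2 -0.120 and Kcnj16 0.144.

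Markers of other cells that make these genes were read beside them. The 7 pineal markers, of which 3 had reads in all 12 libraries, summed to 0.0796 to 0.188% of the signal in SJL_B6, 0.0289 to 0.278% in AD_B6 and 0.0427 to 0.216% in AD_TG. In SJL_B6 replicate 2 and AD_B6 replicate 1 they took 0.188 and 0.259%. Tph1, the first enzyme of serotonin and melatonin synthesis, stood between 10.43 and 13.77. Its r with Otx2 was 0.458 (permutation p = 0.135, adjusted p = 0.938 over all genes), and no tested gene passed for a correlation with Otx2 or with Aqp1. Correlations over all genes with Otx2 and with Aqp1 were added after seeing the values. Asmt and Aanat, the last enzymes of melatonin synthesis, had reads in 2 and 1 libraries. The part of pineal tissue in the Otx2 values was not tested.

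The 7 ependymal markers, genes of the ciliated ventricle lining, summed to 0.00495% in SJL_B6 replicate 2 and 0.00938% in AD_B6 replicate 1, and to at most 0.0444% in any library. By group they took 0.00495 to 0.0288% in SJL_B6, 0.00755 to 0.0415% in AD_B6 and 0.0232 to 0.0444% in AD_TG. Foxj1, the master regulator of motile cilia, which choroid plexus also makes, had r = 0.595 with Ttr (adjusted p = 0.779 by permutation), and 4 of 5 tested markers had a positive r. Tmem212, Ccdc153, Sox2 and Pifo, with reads in 4, 4, 6 and 5 of the 12 libraries, were listed at 0 in both libraries low in Ttr. They were also at 0 in AD_TG replicate 2, where Ttr was 18.69. In SJL_B6 replicate 2 and AD_B6 replicate 1, Foxj1 read 7.99 and 5.77, Dynlrb2 0 and 7.86, and Rarres2 6.18 and 8.29. All 5 tested markers were higher in AD_TG than in AD_B6 and SJL_B6, beside 62.8 and 53.3% of all genes tested. Their median differences were 1.43 and 1.25, beside 0.41 and 0.084 over all genes. None of the 5 passed the threshold in limma, and their part in the values of the members was not tested.

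Liver also makes Ttr, and retinal pigment epithelium makes Ttr and Kcnj13. Of 5 hepatocyte markers Apoa2 and Fga had no reads in any library, Alb had reads in 2, and their sum was at most 0.0101%. Of 5 markers of retinal pigment epithelium Rpe65 and Tyrp1 had no reads, and the sum was at most 0.018%. Oligodendrocytes also make Enpp2. Of their 7 markers 3 had reads in all 12 libraries, Mog had none, and the sum ran from 0.0189 to 0.0448% in SJL_B6, 0.0271 to 0.0509% in AD_B6 and 0.00991 to 0.0365% in AD_TG, with 0.0363 and 0.0509% in the 2 libraries low in Enpp2. The 6 erythroid markers, read for Aqp1, took 0.185 to 0.313%, 0.0816 to 0.883% and 0.0773 to 0.381% in the 3 groups, and the r of Aqp1 with Hbb-bs was 0.214 (permutation p = 0.502).

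Between the groups no member passed. In AD_TG against AD_B6, the comparison with and without the TG label, limma called 0 of 11955 genes (0%) and 0 of the 8. An unadjusted p under 0.05 was found for 639 genes (5.35%) and for 1 of the 8, Aqp1. Of the 8 members 7 were higher in AD_TG, with a median difference of 1.18 log2 units beside 0.41 over all genes, 62.8% of which were higher. Ttr was at 18.15 ± 1.04 in AD_TG and 16.97 ± 2.20 in AD_B6 (SD, n = 4), which puts AD_TG higher by 1.19 (95% interval -0.61 to 2.98, adjusted p = 0.874 in limma). Enpp2 was at 16.26 ± 1.18 and 15.08 ± 2.33, a difference of 1.18 (interval -0.60 to 2.97). Clic6 was at 11.29 ± 0.62 and 9.85 ± 2.97, a difference of 1.44 (interval -0.44 to 3.31). Without AD_B6 replicate 1 the differences of Ttr, Enpp2 and Clic6 were 0.17, 0.11 and 0.042, and that of Kcnj13 turned from 2.36 to -0.16.

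Aqp1 held the only interval of this comparison clear of 0. It was at 10.75 ± 0.24 in AD_TG and 9.42 ± 1.40 in AD_B6 (SD, n = 4), higher by 1.33 in AD_TG (interval 0.053 to 2.61). The unadjusted p was 0.0419 and the adjusted p 0.871 in limma, and the exact two-sided permutation test over the 8 libraries gave p = 0.143. AD_B6 replicate 4, at 11.28, lay above all 4 AD_TG values, so the groups overlapped. Differences for Folr1, Kl and Otx2 were 0.95, 1.03 and -0.062, with intervals of -2.21 to 4.11, -1.84 to 3.90 and -0.90 to 0.78.

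AD_TG against SJL_B6 shares its AD_TG libraries with the comparison above. Limma called 0 of 11955 genes (0%) and 0 of the 8, with 357 genes (2.99%) and 1 of the 8, Kl, at an unadjusted p under 0.05. All 8 members were higher in AD_TG, with a median of 1.04 beside 0.084 over all genes, 53.3% of which were higher. Ttr, at 18.15 against 17.10, differed by 1.052 (interval -0.74 to 2.84), Enpp2 by 1.03 (-0.76 to 2.81), Clic6 by 0.42 (-1.45 to 2.30), Aqp1 by 0.53 (-0.74 to 1.81) and Otx2 by 0.11 (-0.73 to 0.95). Folr1 and Kcnj13, each listed at 0 in SJL_B6 replicate 2, differed by 2.46 (-0.70 to 5.62) and 2.22 (-1.85 to 6.29). Kl differed by 3.12 (interval 0.26 to 5.99, unadjusted p = 0.034, adjusted p = 0.999 in limma), and the exact two-sided permutation test gave p = 0.200. Without SJL_B6 replicate 2, where Kl had about 2 reads, its difference was 0.78. Without that library 5 of the 8 turned negative, with Ttr at -0.19, Enpp2 at -0.10, Folr1 at -0.30, Clic6 at -0.24 and Kcnj13 at -0.35.

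AD_B6 against SJL_B6, which shares both groups with the comparisons above, sets the 2 groups with a very low library beside each other. Limma called 0 of 11955 genes (0%) and 0 of the 8, with 647 genes (5.41%) and 0 of the 8 at an unadjusted p under 0.05. Of the 8 members 3 were higher and 5 lower in AD_B6, with a median of -0.14 beside -0.31 over all genes, 40.2% of which were higher. Ttr was at 16.97 ± 2.20 against 17.10 ± 2.49 (SD, n = 4), which differ by -0.13 (interval -1.93 to 1.66, adjusted p = 0.998 in limma). Enpp2 differed by -0.15 (interval -1.94 to 1.63), Clic6 by -1.02 (-2.89 to 0.86), Aqp1 by -0.80 (-2.07 to 0.48) and Otx2 by 0.17 (-0.67 to 1.01). Folr1, Kl and Kcnj13, whose fitted differences rest on values at or near 0, differed by 1.51, 2.09 and -0.14. Without SJL_B6 replicate 2 Folr1 and Kl turned to -1.25 and -0.26, and without AD_B6 replicate 1 Ttr, Enpp2, Clic6 and Kcnj13 turned to 0.88, 0.92, 0.38 and 2.38.

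In none of the 3 comparisons did a member separate the groups without overlap, where 2.88, 2.53 and 2.82% of all genes did so in the order given. Limma shrinks the spread of a gene towards that of genes of a like level. Its standard error of 0.87 for the differences of Ttr therefore sits beside a within-group SD of 2.01. The intervals of Ttr and Enpp2 are thus narrower than their own spread would give. The same holds for Kl and, to a lesser degree, for Aqp1, the members with an interval clear of 0. For Kl the standard error was 1.39 beside a within-group SD of 3.05. For Aqp1 it was 0.62 beside 1.002. Neither result of an interval clear of 0 can thus be read apart from this shrinkage, and intervals from each gene's own spread were not fitted. The exact permutation tests given above, which use only the gene's own values, did not reach 0.05 for either gene. Of the wider list none passed in any comparison. Higher were 44 of 52 genes in AD_TG against AD_B6 (84.6%, beside 62.8% of all genes, median 1.01) and 43 of 52 in AD_TG against SJL_B6 (82.7%, beside 53.3%, median 0.78). In AD_B6 against SJL_B6, 22 of 52 were higher (42.3%, median -0.18), near the 40.2% of all genes. The list median was 7.69 in AD_B6 replicate 1 and 8.02 in SJL_B6 replicate 2. It was 9.80 to 10.18 in the other SJL_B6 libraries, 8.83 to 11.03 in the other AD_B6 libraries and 9.05 to 10.49 in AD_TG. Many of these genes move together, and the shares without the low libraries are not given here.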

How the data were processed

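The authors deposited 1 file per library with a log2 value per gene symbol, log2(x + 1) of a scaled amount. The scaling is not given in the sources used here. Tools named are Bowtie2 and bedtools, with hg19 as the build, a human one beside mouse symbols, per the submitters' processing notes. Per the labels' protocols, Lexogen QuantSeq libraries were made from 500 ng of RNA. Of 23282 entries, the one with the highest mean was kept for each of 35 repeated symbols, which left out 44. The value of 1 read was taken from even steps in linear values below 20, and 91.2 to 100% of them lay within 0.15 of a whole step. A gene has reads at a linear value of 0.3 or more.

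All 12 libraries entered 1 fit with limma 3.58.1 in R 4.3.3 (eBayes with trend), with two-sided tests, p-values adjusted by Benjamini-Hochberg over the 11955 genes and a threshold of 0.05. A count model had been planned for counts, and limma for log2 values, which the files held. Correlations used Python 3.11.15. Both analyses were tested on simulated data. Alternatives were other scalings, filters, pseudocounts and eBayes settings, 2 groups per fit, a replicate block, rank correlation, group means removed and libraries left out. The genes and lists were chosen with earlier results of these data known. Named were the 8 members, the 12 most abundant of the wider list, up to 6 of each other list, the 12 genes with the highest and 5 with the lowest r with Ttr, and list genes past a threshold, except a few list genes that are not reported here. Symbols of 5 listed genes were matched through RefSeq synonyms. Same-numbered libraries did not deviate together (correlations of -0.0153 to 0.067), so the replicate number was not used as a block in the fit reported.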

Additional observations from a re-analysis of the deposited data

Results flagged for a closer look

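In groups of 4, a library was listed when its gap to the nearest other library as a share of the range of the group exceeded Dixon's 95% critical value. Of 24 combinations of a member and a group, 7 met this, where chance gives about 1 in 20, and the members move together, so these are not 7 separate events. SJL_B6 replicate 2 was low for Ttr at 13.38 (others 18.13 to 18.51), for Enpp2 at 11.86 (others 16.28 to 16.50), for Folr1 at 0 (others 10.70 to 11.63) and for Kcnj13 at 0 (others 9.66 to 10.61). AD_TG replicate 3 was low for Ttr at 16.59 (others 18.63 to 18.71), for Enpp2 at 14.50 (others 16.83 to 16.87) and for Folr1 at 9.40 (others 11.12 to 11.28).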

How the results depend on the processing

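No member passed limma in any comparison under any alternative run: of 495 member differences the adjusted p ran from 0.655 to 1, and 42 changed sign. Subtracting the mean of each library moved the median over all genes in AD_B6 against SJL_B6 from -0.31 to 0.16, and in AD_TG against AD_B6 from 0.41 to -0.22. In AD_B6 against SJL_B6 the differences of Ttr, Enpp2 and Kcnj13 then turned to 0.34, 0.31 and 0.33, and by quantile normalization those of Ttr and Enpp2 to 0.20 and 0.19. In AD_TG against SJL_B6, Otx2 turned to -0.0515 with the mean subtracted. Leaving out SJL_B6 replicate 2 and AD_B6 replicate 1 together, an alternative chosen after seeing the data, turned Folr1 to -0.84 in AD_B6 against SJL_B6, and Kcnj13 to -0.16 and Otx2 to 0.12 in AD_TG against AD_B6. In AD_TG against SJL_B6 it turned Ttr, Enpp2, Folr1, Clic6 and Kcnj13 to -0.19, -0.10, -0.30, -0.24 and -0.35. Without eBayes trend and with robust priors, limma called 10, 10 and 2 genes, no member among them, where the reported fit called 0.

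Leaving out 1 library at a time in AD_B6 against SJL_B6 gave -1.37 to 0.88 for Ttr, -1.28 to 0.92 for Enpp2, -1.25 to 2.63 for Folr1, -0.26 to 3.09 for Kl, -1.96 to 0.38 for Clic6, -2.71 to 2.38 for Kcnj13 and -0.10 to 0.44 for Otx2. In AD_TG against AD_B6 it gave -0.16 to 3.59 for Kcnj13 and -0.26 to 0.14 for Otx2. In AD_TG against SJL_B6 it gave -0.19 to 1.57 for Ttr, -0.10 to 1.62 for Enpp2, -0.30 to 3.58 for Folr1, -0.24 to 0.76 for Clic6, -0.35 to 3.19 for Kcnj13 and -0.16 to 0.38 for Otx2.

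Of the members correlated with Ttr, 2 of 7 passed, but 0 by Spearman, 0 with group means removed and 0 without the 2 libraries farthest from the median of Ttr, where r of Otx2 turned to 0.355. For the wider list the 6 of 52 that passed became 0 in each of these. With group means removed, libraries were permuted only within groups of 4, which left hardly any gene able to pass. Leaving out 1 library at a time gave 0 to 3 members and 0 to 6 genes of the wider list. Without SJL_B6 replicate 2, AD_B6 replicates 1, 2 or 4, or AD_TG replicates 1, 2 or 3, both counts were 0. The smallest p that the permutations can give is 1e-05, so a gene passes only where several genes reach such low p-values together. Without SJL_B6 replicate 2, the lowest adjusted p of any gene was 0.120 by permutation. The r of Enpp2 stayed at 0.989 to 0.994 when single libraries were left out. The counts of genes past the threshold thus depend on other genes too, and further causes were not tested.

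With the replicate number as a block, no call changed (0 members called), the difference of Ttr in AD_TG against AD_B6 was 1.19 with an adjusted p of 0.843 in limma, and 4 of the 12 libraries correlated best with their own number. With values of at least 10 in all 12 libraries, Folr1, Kl and Kcnj13 could not be tested. The estimated depth sets how low a value can be read, and Folr1 and Kcnj13 are listed at 0 in libraries of 6777532 to 9247514 reads.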
